A study of Homo sapiens with 12 samples.

Results

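The HOX genes of the 4 human HOX clusters were chosen by name, as every gene of the count table whose symbol is HOX followed by A, B, C or D and a number. This gave 39 of the 28395 genes counted, with 11 genes of HOXA on chromosome 7, 10 of HOXB on chromosome 17, 9 of HOXC on chromosome 12 and 9 of HOXD on chromosome 2. From the first to the last member HOXB, HOXC and HOXD span chr17:48528526-48728750, chr12:53938831-54056030 and chr2:176087487-176190907 in RefSeq (GRCh38.p14). A filter of at least 0.5 CPM (read count relative to library depth) in at least 3 libraries was passed by 30 of the 39, which were 11 HOXA, 9 HOXB, 7 HOXC and 3 HOXD genes. HOXB1, HOXC11, HOXC12, HOXD1, HOXD9, HOXD10, HOXD11, HOXD12 and HOXD13 did not pass and are described by their reads. HOXA2 and HOXA4 reached 0.5 CPM in 0 control libraries and HOXD3 in 1, so these genes entered the tests through the other lines, and HOXC4 and HOXC13 reached it in 2 of the 3 libraries of the CDX1 line.

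RNA-seq of polyA RNA compared 4 stable lines of HCT116, a human colorectal cancer cell line, with 3 libraries per line and 12 in all. HCT116 EV cells carried the empty pcDNA3.1 vector, HCT116 EHF cells an EHF expression plasmid, HCT116 CDX1 cells a CDX1 retrovirus, and HCT116 EHF+CDX1 cells both, so that each transgene was compared with the empty vector and EHF with CDX1 alone. The EV and EHF lines were obtained from geneticin-resistant clones and the CDX1 line was a GFP-sorted population, whereas the EHF+CDX1 line was made from the CDX1 line by a further transfection and geneticin selection. None of the 4 lines carried an empty retrovirus, so CDX1 cells were compared with a plasmid control. The effect of a transgene and the vector, clone or selection that came with it cannot be told apart. Nothing in the labels says that the 3 libraries of a line came from separate cultures, so the p-values measure the spread between these libraries only.

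HOX proteins are homeodomain transcription factors that set position along the head-to-tail axis of the embryo. In each cluster the genes lie in the order of their paralogue numbers, low numbers at the 3′ end being used in anterior and high numbers at the 5′ end in posterior parts of the body, and the colon, as hindgut, is known for posterior HOX genes such as HOXA13 and HOXB13. CDX1 is a caudal-type homeodomain factor from a sister family of the HOX genes and caudal factors are known regulators of HOX genes in the embryo, while EHF is an ETS factor of epithelia. Anterior is used here for paralogues 1 to 3, central for 4 to 8 and posterior for 9 to 13.

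Total counts lay between 13523007 and 74186741 per library, with 6910 to 29862 reads on the 39 HOX genes. EHF transcripts were at 236.5 to 335.2 CPM in EV cells, at 17115 to 19890 CPM in both lines with the plasmid and at 11.9 to 13 CPM in CDX1 cells. CDX1 transcripts were at 487.4 to 558.7 CPM in CDX1 cells and at 5108 to 5639 CPM in EHF+CDX1 cells, with 0 to 4 reads in each library of the other lines, so the lines that carry CDX1 differed in its level. EV replicate 3 stood apart from the other EV libraries, as the chi-square of its counts over their degrees of freedom was 323.2 and 293.9 against these, where it was 4.18 between EV replicates 1 and 2. Calls at 1.5-fold, as set out below, that change without EV replicate 3 are given both ways. The colon epithelial markers, 7 of 7 at 0.5 CPM or more in at least 3 libraries, summed to 4208 to 5478 CPM in the lines other than CDX1 cells and to 2399 to 2901 CPM in CDX1 cells. In the latter line 7 fibroblast markers, 2 of them at that level, summed to 167.8 to 220.1 CPM, nearly all of it COL1A1 with LUM at 0, and 5 blood cell markers, 1 at that level, to 77.2 to 88.6 CPM, nearly all of it CD68, against 34.5 to 76.7 and 2.18 to 10.5 CPM in EV cells. Of 3 neural markers ELAVL3 alone reached that level and the sum was 5.48 to 6.29 CPM in CDX1 cells against 0.172 to 0.974 CPM in EV cells, while 4 endothelial markers stayed at 2.04 CPM or less in every library. Their part in the HOX results was not tested, and in bulk RNA fewer cells of a type and less RNA per cell cannot be told apart.

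RefSeq promoter windows (GRCh38.p14) were at hand for 20 of the 39 genes, as 27 windows of 300 bases around annotated start sites, of which HOXC4 and HOXC5 share 1. They were searched on both strands for TTTATG (reverse complement CATAAA), the core preferred by caudal factors and also close to sites of posterior HOX proteins, and for CCGGAAG (reverse complement CTTCCGG), an ETS core. TTTATG was found in 3 of the 27 windows, against 10.6% of the 35116 human promoter windows in the same table, and CCGGAAG in 0 of 27, against 10.3%. Of the genes that passed the filter and have a window, HOXA2, HOXA3 and HOXA4 differed most from the control with all libraries fitted. HOXA9 is a gene of the same cluster that carries the motif and was called in none of the comparisons. The windows of these genes are on the minus strand, written 5′ to 3′, with TTTATG or its reverse complement in capitals.
HOXA2, chr7:27102634-27102933: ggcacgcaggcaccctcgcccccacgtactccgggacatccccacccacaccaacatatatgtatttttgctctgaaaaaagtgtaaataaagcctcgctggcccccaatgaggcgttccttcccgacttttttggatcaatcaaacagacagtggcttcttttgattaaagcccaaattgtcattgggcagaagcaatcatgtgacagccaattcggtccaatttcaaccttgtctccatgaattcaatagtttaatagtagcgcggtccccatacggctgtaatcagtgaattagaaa
HOXA3, chr7:27152534-27152833: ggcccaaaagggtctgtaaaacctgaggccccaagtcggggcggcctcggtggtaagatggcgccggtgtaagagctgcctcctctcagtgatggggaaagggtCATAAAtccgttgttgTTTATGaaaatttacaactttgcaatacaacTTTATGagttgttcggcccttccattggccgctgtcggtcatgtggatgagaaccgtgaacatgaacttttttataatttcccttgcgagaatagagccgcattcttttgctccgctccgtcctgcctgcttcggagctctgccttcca
HOXA4, chr7:27130708-27131007: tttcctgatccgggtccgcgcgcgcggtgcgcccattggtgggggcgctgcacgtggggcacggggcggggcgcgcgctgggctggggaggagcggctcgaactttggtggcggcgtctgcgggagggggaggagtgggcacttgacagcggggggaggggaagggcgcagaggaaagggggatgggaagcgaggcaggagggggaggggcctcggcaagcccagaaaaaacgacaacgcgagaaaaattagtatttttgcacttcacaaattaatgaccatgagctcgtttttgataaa
HOXA9, chr7:27165488-27165787: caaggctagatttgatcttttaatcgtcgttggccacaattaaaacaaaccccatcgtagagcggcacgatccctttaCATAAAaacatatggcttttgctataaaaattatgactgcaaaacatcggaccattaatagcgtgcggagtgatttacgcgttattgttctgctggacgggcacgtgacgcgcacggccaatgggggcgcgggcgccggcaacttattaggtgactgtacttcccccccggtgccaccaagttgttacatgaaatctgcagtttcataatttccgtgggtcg
The HOXA3 window shown, at the most upstream of the 7 start sites annotated for that gene, holds 3 matches, and the other HOXA3 windows hold none. The HOXA9 window holds 1. The third window with a match was that of HOXD8 (chr2:176129455-176129754, plus strand), and those of HOXA2 and HOXA4 hold none. These matches are letters in a window and no binding was measured.

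In EV cells the HOX genes were read mainly from the HOXB cluster. Per exon length (RPKM, which is CPM divided by kilobases of exon, given as mean ± SD with n = 3), HOXB8 at 38.0 ± 10.9, HOXB9 at 37.4 ± 8.59 and HOXB7 at 36.8 ± 13.7 were the highest of the 30 tested genes and did not differ beyond their spread. HOXB4, HOXB6 and HOXB5 followed at 18.1 ± 3.35, 17.1 ± 1.27 and 16.3 ± 2.06 RPKM, again within their spread of each other, and then HOXA9 at 10.5 ± 4.09 and HOXC9 at 7.27 ± 1.04 RPKM. By position the RPKM levels thus rose from the anterior to the central genes of HOXB. HOXB2 and HOXB3 stood at 1.54 ± 0.502 and 1.69 ± 0.453 RPKM, and levels fell again to 4.41 ± 1.95 RPKM for HOXB13. The HOXB3 value is divided by an annotated exon length of 21485 bases, against 2033 bases for HOXB4. Before that division HOXB3 stood at 36.3 ± 9.72 CPM and HOXB4 at 36.8 ± 6.81 CPM, so the rise from HOXB3 to HOXB4 rests on this length. In HOXA the genes HOXA2, HOXA3 and HOXA4 toward the 3′ end stood at 0.038, 0.217 and 0.228 RPKM, all below the 1.29 to 10.5 RPKM of the 7 genes from HOXA5 to HOXA13. The 3 tested HOXD genes lay between 0.112 RPKM for HOXD3 and 1.43 RPKM for HOXD8.

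The makeup of the HOX transcripts differed between the lines. The 39 genes together summed to 541 ± 77.1 CPM (SD, n = 3) in EV cells, 371 ± 3.24 in EHF cells, 392 ± 20.8 in CDX1 cells and 493 ± 4.57 in EHF+CDX1 cells. HOXB made up 80.9% of this sum in EV cells, 65.1% in EHF cells, 59.4% in CDX1 cells and 74.1% in EHF+CDX1 cells. The share of HOXA was 13%, 23.1%, 26.7% and 18.4% in the same order.

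Genes were called higher or lower where they passed an edgeR test against a 1.5-fold change. The standard errors (SE) and adjusted p-values given with single genes come from the same model and test for any change at all. In EHF cells against EV cells 4 of the 30 tested HOX genes were called higher and 3 lower, where 5.68% and 2.65% of all 15853 genes tested were called. In CDX1 cells against EV cells 8 were called higher and 10 lower, against a background of 21.3% and 23.3%, so that the members' 26.7% and 33.3% lay near the share of all genes. The test against no change gave 10 and 10 there (background 33.8% and 35.1%), and 8 and 6 in EHF cells (14.9% and 15.1%). For EHF+CDX1 cells against EV cells the counts were 4 higher and 0 lower, against 7.3% and 3.13%, and the test against no change gave 6 higher and 1 lower, where 16.9% and 16.7% of all genes passed. Since HOXA2 and HOXA4 could pass the filter only through lines other than EV, the counts of higher genes are a description. Groups of libraries did not overlap in 9 higher and 8 lower members for EHF cells (22.1% and 21.5% of all genes), 8 and 10 for CDX1 cells (33.9% and 32.8%) and 7 and 3 for EHF+CDX1 cells (23.1% and 20.9%). The 3 comparisons share the EV libraries. With libraries scaled by total counts, a setting added after the data were seen, the calls over all genes in CDX1 cells were 2273 higher and 5115 lower in place of 3384 and 3691, and those of the HOX genes 6 and 10. The median log2 fold change of the 30 genes was 0.02, 0.21 and 0.02 in these comparisons. That of all genes tested was -0.04, -0.03 and -0.03.

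**Figure D1:**
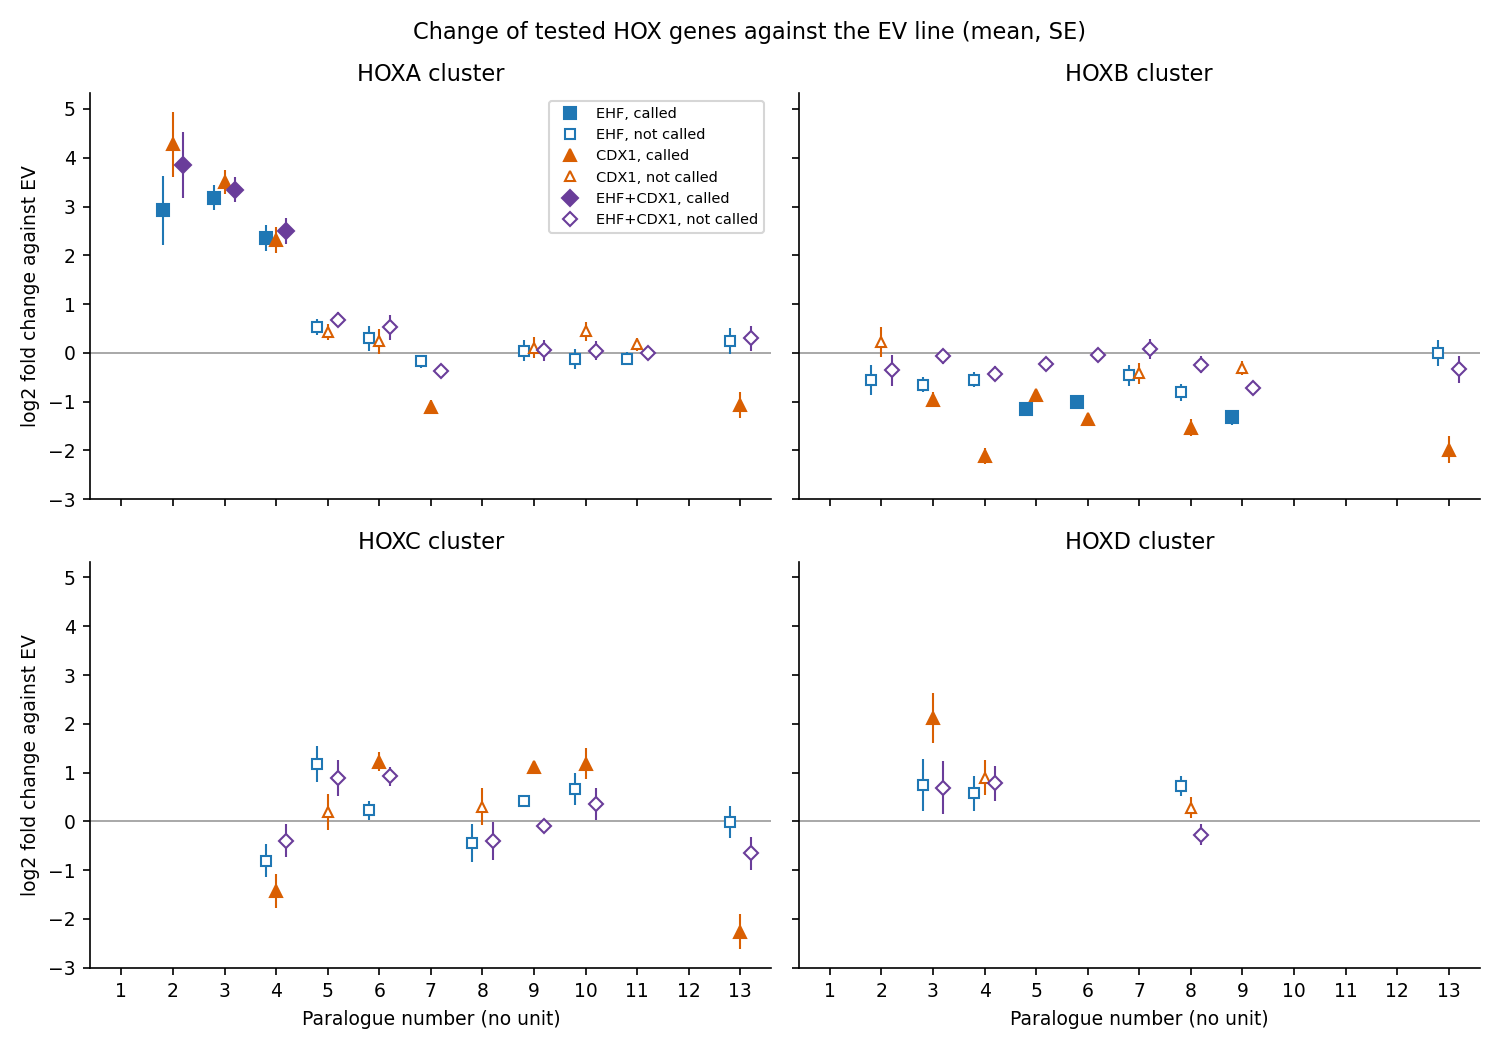
Log2 fold change against EV cells (points, bars SE) of tested HOX genes by paralogue number, with filled symbols for genes past the 1.5-fold test. Filled symbols above 0 sit at HOXA2 to HOXA4 in each of the 3 lines, and filled symbols below 0 in HOXB belong to EHF cells and CDX1 cells.

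HOXA genes toward the 3′ end of their cluster showed high changes in all 3 lines. HOXA2, HOXA3 and HOXA4 were called higher than in EV cells in each comparison with the control, by 2.35 to 3.18 on the log2 scale in EHF cells, 2.31 to 4.27 in CDX1 cells and 2.50 to 3.85 in EHF+CDX1 cells. From HOXA5 onward no HOXA gene was called higher in any of the 3 comparisons, and the medians of HOXA5 to HOXA13 were 0.04, 0.18 and 0.05. Of the genes called, HOXA2 and HOXA4 reached 0.5 CPM in 0 EV libraries and passed the filter through the other lines. Their calls and p-values here and below are therefore a description. HOXA3 reached that level in 3 EV libraries.

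HOXA3, known for pharyngeal development, has TTTATG matches only in the most upstream of its 7 windows. It was at 1.29, 0.568 and 1.45 CPM in the EV libraries and at 11.2, 10.4 and 10.1 CPM in the EHF libraries. In the CDX1 libraries it was at 14.7, 11.4 and 13.4 CPM and in the EHF+CDX1 libraries at 13.7, 11.7 and 9.88 CPM. The EHF+CDX1 libraries overlapped those of both single lines, and each line lay above the EV libraries. HOXA3 was 9.07-fold higher in EHF cells (log2 3.18, SE 0.25, adjusted p = 3.05e-06), 11.4-fold in CDX1 cells (log2 3.51, SE 0.25, adjusted p = 1.8e-07) and 10.2-fold in EHF+CDX1 cells (log2 3.35, SE 0.25, adjusted p = 1.56e-06). In EHF+CDX1 cells against CDX1 cells it was not called. The annotated span of HOXA3 overlaps HOXA4, HOXA5, HOXA6 and antisense genes. The strand setting of the counting is not given in the sources used here, so the split of reads is uncertain for these genes, as for HOXA7 with HOXA-AS3, HOXC10 with HOXC-AS3 and HOXC13 with HOXC13-AS.

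HOXA2, a gene of the hindbrain and branchial arches, had 3, 0 and 4 reads in the EV libraries, which is 0.129, 0 and 0.0735 CPM. It was at 0.532, 0.399 and 0.700 CPM in the EHF libraries, 1.75, 1.47 and 1.03 CPM in the CDX1 libraries and 0.576, 1.80 and 0.691 CPM in the EHF+CDX1 libraries, so that every library of the 3 lines was above those of EV cells. Its log2 fold changes were 2.92 (SE 0.71, adjusted p = 0.00871) in EHF cells, 4.27 (SE 0.67, adjusted p = 0.000114) in CDX1 cells and 3.85 (SE 0.68, adjusted p = 0.00105) in EHF+CDX1 cells. With so few reads in EV cells the sizes are imprecise, and the call in EHF cells was lost under 9 of 21 alternative settings, among them each that left out EV replicate 2 or 3 or EHF replicate 1 or 3. The call in EHF+CDX1 cells was lost with limma voom.

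HOXA4 was at 0.388, 0.426 and 0.368 CPM in the EV libraries, from 9, 9 and 20 reads, at 1.86, 2.06 and 2.06 CPM in the EHF libraries, 2.26, 2.07 and 1.49 CPM in the CDX1 libraries and 2.55, 2.32 and 1.66 CPM in the EHF+CDX1 libraries. The 3 lines overlapped and stood above EV cells, by log2 2.35 (SE 0.27, adjusted p = 4.92e-05), 2.31 (SE 0.27, adjusted p = 9.16e-06) and 2.50 (SE 0.27, adjusted p = 2.59e-05). HOXA5, the next gene, which in the mouse is needed for lung development, was not called and differed by log2 0.53, 0.43 and 0.68 in the same order, with adjusted p = 0.0265, 0.0304 and 0.0066.

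Apart from HOXA4, the central and posterior HOXA genes called against EV cells in CDX1 cells were HOXA7 and HOXA13, both lower. HOXA7 was at 7.45, 8.24 and 6.30 CPM in the EV and 3.22, 3.33 and 3.58 CPM in the CDX1 libraries, which is lower by log2 -1.11 (SE 0.14, adjusted p = 2.59e-05), a call that both limma fits did not make. HOXA13 is described with its paralogues below. HOXA6, HOXA9, HOXA10 and HOXA11 were called in no comparison. HOXA9, which shares a readthrough transcript with HOXA10, had means of 10.5 ± 4.09, 10.7 ± 0.552, 11.2 ± 0.522 and 10.8 ± 0.0685 RPKM in EV, EHF, CDX1 and EHF+CDX1 cells.

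**Figure D2:**
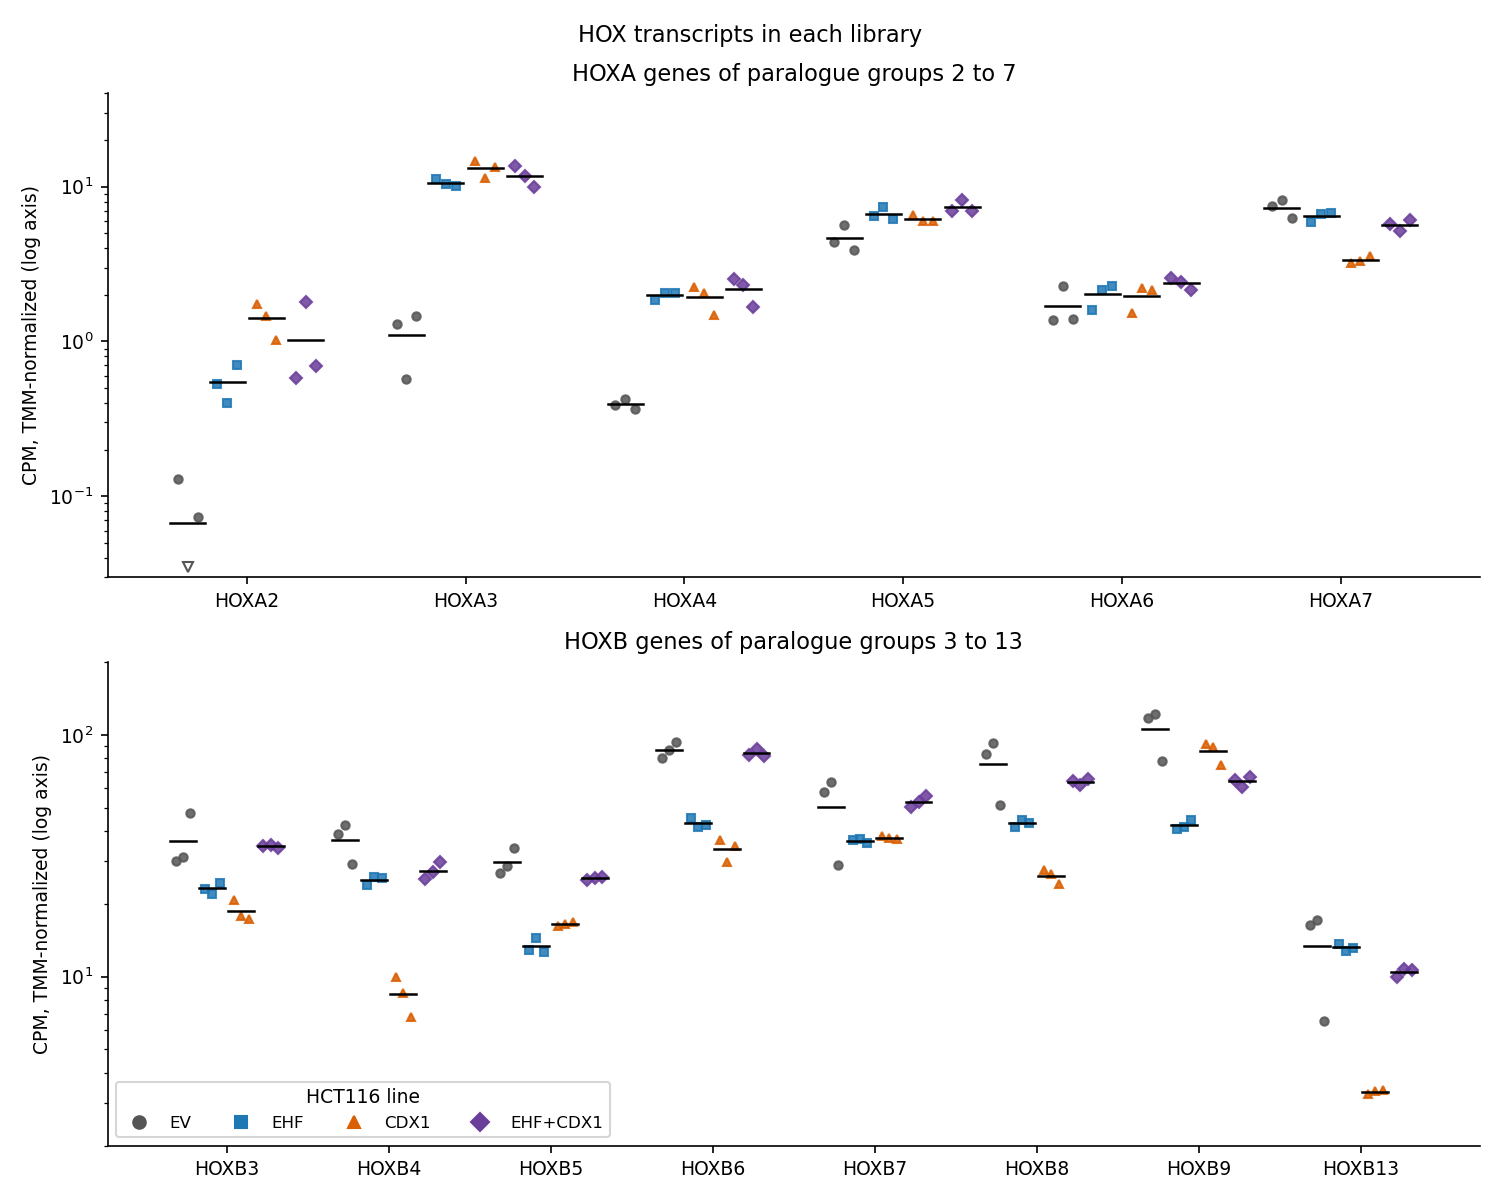
CPM (TMM-normalized, log axis) of HOXA2 to HOXA7 and of HOXB3 to HOXB13 in each of the 12 libraries, with bars for the mean of a line and an open triangle at the lower edge for the EV library with 0 reads of HOXA2. The EV points of HOXA2 to HOXA4 lie under all others, and the points of CDX1 cells are the lowest for HOXB4, HOXB6, HOXB8 and HOXB13.

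In HOXB the calls against EV cells were of lower genes. No HOXB gene was called higher than in EV cells in any line, whereas 3 of 9 were called lower in EHF cells (2.65% of all genes) and 6 of 9 in CDX1 cells (23.3% of all genes), with median log2 fold changes of -0.65 and -0.96 over the 9 tested genes. In EHF+CDX1 cells 0 were called at 1.5-fold, with a median of -0.24, and HOXB9 alone was lower in the test against no change. The HOXB calls of EHF cells were HOXB5, HOXB6 and HOXB9 and those of CDX1 cells were HOXB3, HOXB4, HOXB5, HOXB6, HOXB8 and HOXB13.

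HOXB4, known for its use in expanding blood stem cells, showed the largest fall of the central HOXB genes. It was at 38.8, 42.3 and 29.2 CPM in the EV libraries, 23.8, 25.8 and 25.5 CPM in the EHF libraries, 9.92, 8.59 and 6.82 CPM in the CDX1 libraries and 25.3, 27.2 and 29.7 CPM in the EHF+CDX1 libraries. The CDX1 libraries were below all others, by log2 -2.12 against EV cells (SE 0.16, adjusted p = 3.06e-07). From CDX1 cells to EHF+CDX1 cells it rose 3.23-fold (log2 1.69, SE 0.16, adjusted p = 2.29e-06). Its span overlaps that of HOXB3, whose annotated exon length of 21485 bases is the longest of the tested members.

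HOXB5 and HOXB6 were called lower in both single lines and not in EHF+CDX1 cells. HOXB6 was at 80.2, 86.9 and 93.1 CPM in the EV libraries, 45.4, 41.5 and 42.5 CPM in the EHF libraries, 36.7, 29.7 and 34.8 CPM in the CDX1 libraries and 82.8, 87.6 and 82.0 CPM in the EHF+CDX1 libraries. The EHF+CDX1 libraries overlapped those of EV cells, and both single lines lay below them, by log2 -1.01 (SE 0.10, adjusted p = 1.48e-05) in EHF cells and -1.36 (SE 0.10, adjusted p = 1.84e-07) in CDX1 cells. HOXB5, known for the enteric nervous system, was at 26.7, 28.6 and 33.9 CPM in the EV libraries, 12.9, 14.5 and 12.7 CPM in the EHF libraries, 16.2, 16.5 and 16.7 CPM in the CDX1 libraries and 25.2, 25.6 and 25.7 CPM in the EHF+CDX1 libraries. The EHF libraries had the lowest HOXB5, by log2 -1.16 (SE 0.11, adjusted p = 9.54e-06), the CDX1 libraries followed at -0.86 (SE 0.10, adjusted p = 1.5e-05, not called in the limma fits), and the EHF+CDX1 libraries lay just under those of EV cells. The spans of both genes overlap the antisense gene HOXB-AS3.

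HOXB8, whose mouse mutants groom excessively, was at 83.3, 92.8 and 51.2 CPM in the EV libraries, 41.7, 44.5 and 43.0 in the EHF libraries, 27.6, 26.5 and 24.1 in the CDX1 libraries and 64.4, 61.7 and 65.7 in the EHF+CDX1 libraries, with log2 -1.54 in CDX1 cells against EV cells (SE 0.17, adjusted p = 7.87e-06). HOXB3 was lower by log2 -0.96 (SE 0.16, adjusted p = 0.000157) in CDX1 cells, a call that DESeq2 and both limma fits did not make. HOXB7 was not called in any comparison. EV replicate 3, at 29.1 CPM, lay far below the other EV libraries at 58.1 and 63.9 CPM. Without that library HOXB7 and HOXB8 were also called lower in EHF cells, by log2 -0.74 and -1.03, so that 5 in place of 3 HOX genes were lower there, and HOXB7 was called lower in CDX1 cells at -0.70. HOXB2, the most anterior tested gene of the cluster, was called in no comparison.

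Paralogue groups 9 and 13 did not share a pattern. In group 13, the most posterior, HOXA13, HOXB13 and HOXC13 were each called lower in CDX1 cells than in EV cells. Each was called higher in the EHF+CDX1 line than in the CDX1 line, a call that both limma fits did not make. In EHF cells or EHF+CDX1 cells against EV cells none of them was called. The CDX1 libraries had the lowest values of all 12 for each of these genes. The colon epithelial markers were also lowest in CDX1 cells, and the part of this in the result was not tested.

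HOXB13, a marker of the prostate and distal colon, was at 16.4, 17.2 and 6.56 CPM in the EV libraries, 13.7, 12.8 and 13.1 CPM in the EHF libraries, 3.29, 3.36 and 3.40 CPM in the CDX1 libraries and 10.0, 10.8 and 10.6 CPM in the EHF+CDX1 libraries. It fell by 1.98 on the log2 scale in CDX1 cells (SE 0.28, adjusted p = 5.59e-05) and was 3.13-fold higher in EHF+CDX1 cells than in CDX1 cells (SE 0.28 on the log2 scale, adjusted p = 0.000262). With limma voom the first of these was log2 -1.34 and was not called. EV replicate 3 was the lowest library of its line and still above those of CDX1 cells. Against EV cells HOXB13 differed by log2 -0.01 in EHF cells (SE 0.27, adjusted p = 0.993) and -0.34 in EHF+CDX1 cells (SE 0.27, adjusted p = 0.368). Without EV replicate 3 the difference in EHF cells was log2 -0.35 (adjusted p = 0.00648 in the test against no change) and was still not called at 1.5-fold.

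HOXC13, known for hair and nail development, was at 5.56, 6.11 and 3.22 CPM in the EV libraries, 4.89, 4.71 and 4.95 CPM in the EHF libraries, 0.482, 1.06 and 1.54 CPM in the CDX1 libraries and 3.02, 3.72 and 2.49 CPM in the EHF+CDX1 libraries. Its changes were log2 -2.26 in CDX1 cells against EV cells (SE 0.36, adjusted p = 0.000144) and 1.61 in EHF+CDX1 cells against CDX1 cells (SE 0.36, adjusted p = 0.00187). Against EV cells the values were -0.02 in EHF cells (SE 0.33, adjusted p = 0.98) and -0.65 in EHF+CDX1 cells (SE 0.34, adjusted p = 0.166).

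HOXA13, a hindgut, limb and genital gene, was at 8.23, 7.05 and 3.71 CPM in the EV libraries, 6.92, 7.60 and 7.62 CPM in the EHF libraries, 3.48, 3.08 and 2.29 CPM in the CDX1 libraries and 7.30, 8.92 and 6.70 CPM in the EHF+CDX1 libraries. The highest CDX1 library lay just under EV replicate 3. The log2 differences were -1.08 in CDX1 cells against EV cells (SE 0.27, adjusted p = 0.00336) and 1.38 in EHF+CDX1 cells against CDX1 cells (SE 0.26, adjusted p = 0.000632). The first of these calls was lost under 8 of 21 alternative settings, including DESeq2 and both limma fits, and each that left out EV replicate 1 or 2 or CDX1 replicate 2 or 3. EHF cells and EHF+CDX1 cells differed from EV cells by log2 0.24 (SE 0.26, adjusted p = 0.514) and 0.30 (SE 0.26, adjusted p = 0.413).

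In group 9 the 3 tested members went apart. HOXB9 was at 117, 122 and 77.9 CPM in the EV libraries, 41.0, 41.4 and 44.2 CPM in the EHF libraries, 91.9, 89.1 and 75.1 CPM in the CDX1 libraries and 65.0, 60.8 and 66.6 CPM in the EHF+CDX1 libraries. It was lowest in EHF cells, by log2 -1.32 (SE 0.15, adjusted p = 5.45e-05), intermediate in EHF+CDX1 cells at -0.72 (SE 0.15, adjusted p = 0.00301), and overlapped EV cells in CDX1 cells at -0.31 (SE 0.15, adjusted p = 0.0836). Without EV replicate 3 the fall in EHF+CDX1 cells became log2 -0.90 and passed the 1.5-fold test.

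HOXC9, known for thoracic motor neuron identity, was at 11.5, 12.6 and 9.48 CPM in the EV libraries, 14.5, 15.5 and 14.5 CPM in the EHF libraries, 24.4, 24.8 and 23.3 CPM in the CDX1 libraries and 11, 9.74 and 10.6 CPM in the EHF+CDX1 libraries. It was highest in CDX1 cells, by log2 1.11 over EV cells (SE 0.12, adjusted p = 4.15e-06), and fell by 1.21 from CDX1 cells to EHF+CDX1 cells (SE 0.12, adjusted p = 2.54e-06). With total-count scaling the first of these was log2 0.76 and was not called. The EHF and EHF+CDX1 differences from EV cells were 0.41 (SE 0.12, adjusted p = 0.0194) and -0.10 (SE 0.12, adjusted p = 0.567) on the log2 scale. HOXA9 differed from EV cells by log2 0.04 (SE 0.22), 0.10 (SE 0.21) and 0.05 (SE 0.22) in EHF, CDX1 and EHF+CDX1 cells, with adjusted p = 0.909, 0.687 and 0.877. Between EHF+CDX1 cells and CDX1 cells it differed by -0.05 (SE 0.21, adjusted p = 0.849), and HOXB9 by -0.41 (SE 0.15, adjusted p = 0.0274).

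**Figure D3:**
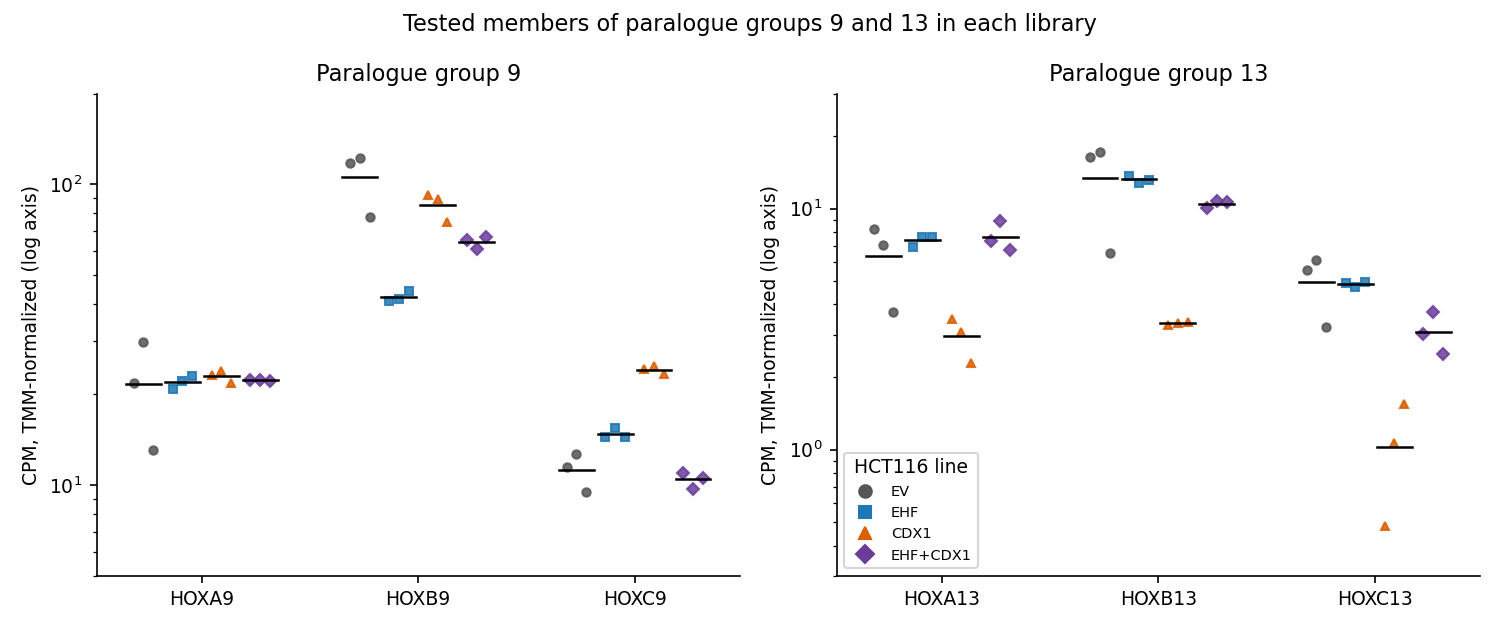
CPM (TMM-normalized, log axis) of the tested members of paralogue groups 9 and 13 in each library, bars for the mean of a line. For HOXA13, HOXB13 and HOXC13 the CDX1 libraries are the lowest points, at 2.29 to 3.48, 3.29 to 3.40 and 0.482 to 1.54 CPM, whereas HOXC9 is highest there at 23.3 to 24.8 CPM.

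Within HOXC the calls against EV cells were all in CDX1 cells, with HOXC6, HOXC9 and HOXC10 higher and HOXC4 and HOXC13 lower. HOXC6 was at 3.62, 3.27 and 5.22 CPM in the EV libraries, 5.43, 4.10 and 4.92 CPM in the EHF libraries, 9.29, 8.41 and 11 CPM in the CDX1 libraries and 8.33, 7.91 and 6.91 CPM in the EHF+CDX1 libraries. Both lines with CDX1 lay above EV cells, by log2 1.23 (SE 0.19, adjusted p = 0.000132) and 0.92 (SE 0.20, adjusted p = 0.00346), and the second of these passed the 1.5-fold test without EV replicate 3, at 1.18. HOXC4, whose span overlaps HOXC5 and HOXC6 so that reads may be split among them, was at 1.38 to 1.65 CPM in the EV libraries and 0.334 to 0.707 CPM in the CDX1 libraries (log2 -1.43, SE 0.35, adjusted p = 0.00305). That call was lost with DESeq2, both limma fits and without CDX1 replicate 3. HOXC10 was at 3.23, 2.51 and 1.67 CPM in the EV and 7.27, 3.06 and 6.20 CPM in the CDX1 libraries. These libraries overlapped, and the call of log2 1.18 (SE 0.32, adjusted p = 0.00585) was lost under 8 of 21 alternative settings, among them each that left out EV replicate 2 or 3 or CDX1 replicate 1 or 3.

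HOXC5 and HOXC8 were called in no comparison. HOXC5 was at 1.94, 1.89 and 0.625 CPM in the EV libraries and 3.19, 3.23 and 3.24 CPM in the EHF libraries, with log2 1.18 (SE 0.37, adjusted p = 0.0295). HOXC8 was at 1.03, 1.14 and 3.27 CPM in the EV libraries, the third being EV replicate 3, and at 2.50, 2.53 and 1.98 CPM in the CDX1 libraries. Without EV replicate 3 HOXC8 was called higher in CDX1 cells, at log2 1.11 in place of 0.30.

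Among the tested HOXD genes the only call against EV cells was a higher HOXD3 in CDX1 cells. That gene reached 0.5 CPM in 1 EV library and passed the filter through the other lines, so its calls are a description. HOXD3, whose mouse mutants have defects of the first cervical vertebrae, was at 0.129, 0.284 and 1.16 CPM in the EV libraries, 1.12, 0.819 and 1.11 CPM in the EHF libraries, 2.56, 2.75 and 2.52 CPM in the CDX1 libraries and 0.629, 1.23 and 1.11 CPM in the EHF+CDX1 libraries. EV replicate 3 overlapped the EHF and EHF+CDX1 libraries, and the CDX1 libraries lay above all others, by log2 2.12 over EV cells (SE 0.52, adjusted p = 0.00311). Without EV replicate 3 the log2 differences of EHF cells and EHF+CDX1 cells from EV cells went from 0.75 to 2.29 and from 0.69 to 2.22, and both were called. HOXD4, whose span overlaps that of HOXD3, had means of 0.955, 1.54, 1.88 and 1.72 CPM in EV, EHF, CDX1 and EHF+CDX1 cells and was called higher without that library in both lines with CDX1, at log2 1.47 and 1.37. HOXD8 was at 2.84, 3.31 and 5.11 CPM in the EV and 5.48, 6.93 and 6.41 CPM in the EHF libraries, and its difference there went from log2 0.72 to 1.05 and was called without EV replicate 3. With these changes the higher HOX genes of EHF+CDX1 cells against EV cells numbered 7 in place of 4.

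The 9 genes below the filter were close to silent in EV cells, where none had more than 2 reads in a library. HOXC11 and most posterior HOXD genes had more reads in both lines that carry the EHF plasmid. HOXD11, needed in the mouse for forearm and kidney development, had 0, 0 and 1 reads in the EV libraries, 3, 18 and 39 in the EHF libraries, 3, 0 and 0 in the CDX1 libraries and 15, 22 and 2 in the EHF+CDX1 libraries. Pooled over a line this was 40.5 times the EV level in EHF cells (exact 95% interval 6.99 to 1625, counting error only) and 31.0 times in EHF+CDX1 cells (5.24 to 1254), against 2.39 times (0.192 to 125.3) in CDX1 cells. The wide intervals come from the single EV read.

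HOXC11 had 0 reads in each EV library, 3, 6 and 19 in the EHF libraries, 5, 2 and 5 in the CDX1 libraries and 21, 14 and 5 in the EHF+CDX1 libraries. A floor of 3 counts over the EV libraries together is 0.0304 CPM. The pooled level was 6.29 times this floor in EHF cells, 3.18 times in CDX1 cells and 10.6 times in EHF+CDX1 cells. These ratios leave out the counting error of the 3 lines and are not lower bounds. The exact intervals of the pooled levels began at 0.127, 0.05 and 0.23 CPM in the same order, each above the floor. Its span overlaps HOTAIR, so the reads of these genes cannot be separated without the strand. In an edgeR fit of all 24839 genes with at least 1 count, HOXC11 and HOXD11 passed the 1.5-fold test in EHF cells (adjusted p of that test 0.0122 and 0.0156) and EHF+CDX1 cells (0.00247 and 0.0227), where 3.76% and 5.23% of genes were called higher, and HOXC11 passed it in CDX1 cells (0.0118), where 14.4% were.

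HOXD9, HOXD10 and HOXD13 did not pass that test against EV cells in any line. In EHF+CDX1 cells against CDX1 cells HOXD10, HOXD11 and HOXD13 passed it as higher, where 3786 of the 24839 genes were called higher. HOXD10 had 2, 0 and 0 reads in the EV libraries and 0, 3 and 0 in the CDX1 libraries, but 6, 16 and 28 in the EHF libraries and 10, 23 and 3 in the EHF+CDX1 libraries. HOXD9 had 0, 2 and 0 reads in the EV libraries, 3, 12 and 32 in the EHF libraries, 1, 2 and 0 in the CDX1 libraries and 3, 7 and 1 in the EHF+CDX1 libraries. HOXD13, the digit gene of synpolydactyly, had 0, 0 and 1 reads in the EV libraries, 0, 5 and 5 in the EHF libraries, 2, 0 and 0 in the CDX1 libraries and 6, 17 and 4 in the EHF+CDX1 libraries. Even so, the highest of these levels, that of HOXD11 in EHF cells, was 0.410 CPM over the line. HOXB1, HOXC12, HOXD1 and HOXD12 had 0 reads in all EV libraries and at most 9 in any other library, the highest being HOXD1 in CDX1 replicate 1. A count of 0 in a library allows 0.0375 to 0.207 CPM, depending on its depth.

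**Figure D4:**
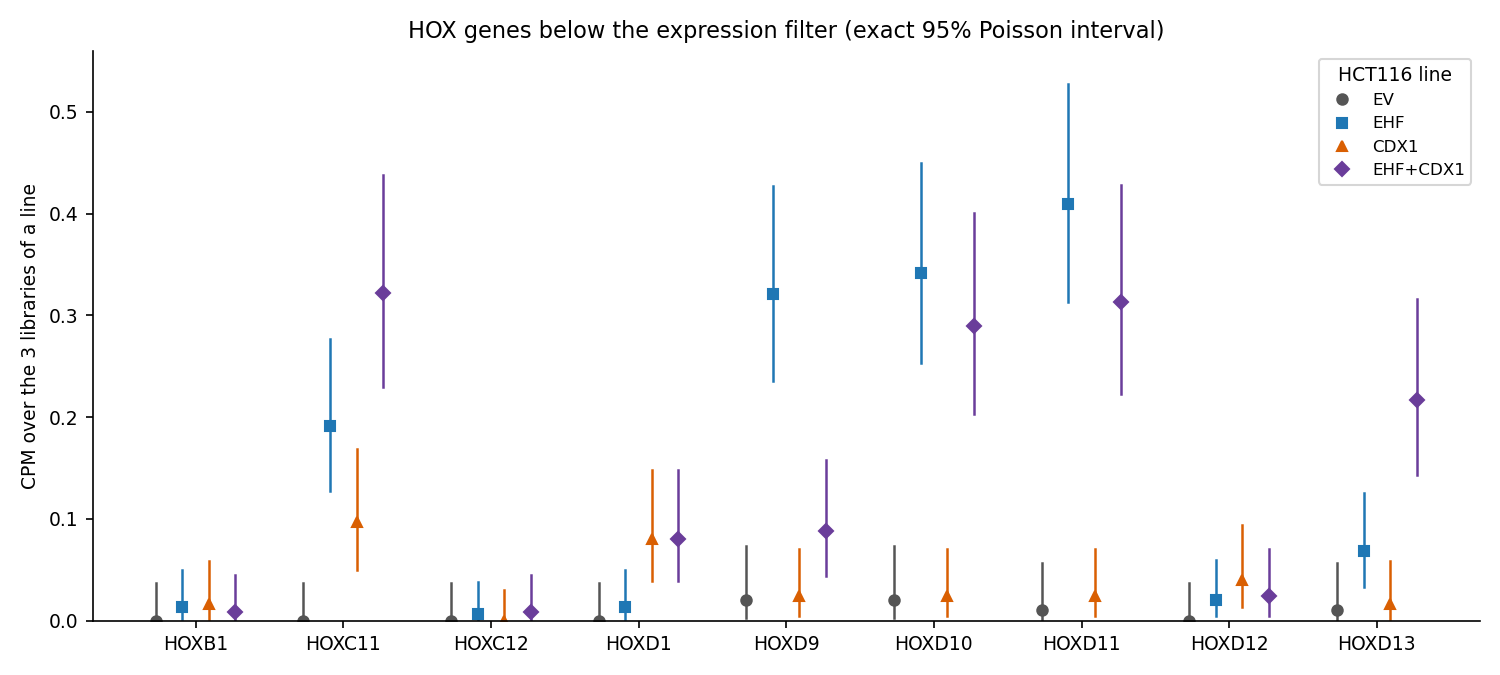
CPM pooled over the 3 libraries of a line, with exact 95% Poisson intervals for counting error, of the 9 HOX genes below the filter. HOXD9, HOXD10 and HOXD11 lie at 0.321 to 0.410 CPM in EHF cells and at 0.0242 CPM in CDX1 cells, and HOXC12 stays near 0 in all lines.

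Addition of EHF to cells with CDX1 was compared by EHF+CDX1 cells against CDX1 cells. HOXA13, HOXB3, HOXB4, HOXB6, HOXB8, HOXB13 and HOXC13 were called higher and HOXC9 was among the lower genes, which is 7 and 2 of 30 against 22.3% and 18.7% of all genes tested. In the test against no change they were 10 and 6 (34.9% and 32.3%). With total-count scaling the calls over all genes were 5074 higher and 1765 lower in place of 3529 and 2970, and those of the HOX genes 10 and 2. The HOXB3 call was lost in 7 of 21 settings, among them without CDX1 replicate 2 or 3 or EHF+CDX1 replicate 1 or 2. HOXD3, at log2 -1.42 and not called, was called lower in both limma fits and with the compared lines alone. It was also called lower without EV replicate 1 and without EV replicate 3, in the latter at -1.44. HOXD8 was called lower in both limma fits, HOXB2 with limma voom and HOXC10 without CDX1 replicate 2. The median log2 fold change of the 9 HOXB genes was 0.89, and that of all genes 0.04. Libraries of the 2 lines did not overlap in 13 members that were higher and 9 that were lower, against 41.1% and 39.2% of all genes. These lines also differ in the CDX1 transcript level given above, and its part in these differences was not tested. HOXA2, HOXA3 and HOXA4 were not called between these lines, at log2 values within -0.42 to 0.19.

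A test of whether the effect of EHF differs with and without CDX1 (the log2 change from CDX1 cells to EHF+CDX1 cells minus that from EV cells to EHF cells) called 8 HOX genes higher and 8 lower, against 20.2% and 18% of all genes. Against no change it found 12 and 8 (30.2% and 28.3%). EHF transcripts were lower in CDX1 cells than in EV cells, as given above, so the 2 effects start from unlike EHF levels, and the part of this was not tested. Total-count scaling moved the calls over all genes from 3202 higher and 2853 lower to 4435 and 1970, and those of the HOX genes to 12 and 5. Among the lower genes were HOXA2 to HOXA4, HOXC9, HOXC10, HOXD3 and HOXD8, and the higher were HOXB3, HOXB4, HOXB5, HOXB6, HOXB8, HOXB13, HOXC4 and HOXC13. HOXA2 to HOXA4 had differences of log2 -3.34 (SE 0.85), -3.34 (SE 0.33) and -2.16 (SE 0.35), as they were higher in EHF cells than in EV cells and not higher in EHF+CDX1 cells than in CDX1 cells. Among the central HOXB genes the highest differences were log2 2.33 for HOXB6 (SE 0.14, adjusted p = 1.45e-07), 2.24 for HOXB4 (SE 0.22, adjusted p = 5.82e-06) and 2.11 for HOXB8 (SE 0.24, adjusted p = 1.82e-05). In group 9 HOXC9 gave log2 -1.62 (SE 0.16, adjusted p = 6.87e-06), HOXB9 0.91 (SE 0.21, adjusted p = 0.00293, not called) and HOXA9 -0.09 (SE 0.30, adjusted p = 0.818). In group 13 HOXB13 and HOXC13 gave 1.65 (SE 0.39, adjusted p = 0.00317) and 1.63 (SE 0.49, adjusted p = 0.0133), and HOXA13, which was not called, 1.13 (SE 0.37, adjusted p = 0.0197).

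Noncoding RNAs of the clusters were counted as a list of 26, of which 22 are in the table and 12 were tested. In EHF cells against EV cells 3 were called higher and 0 lower (5.68% and 2.65% of all genes), in CDX1 cells 2 and 1 (21.3% and 23.3%), in EHF+CDX1 cells 5 and 0 (7.3% and 3.13%), and in EHF+CDX1 cells against CDX1 cells 4 and 2 (22.3% and 18.7%), with median log2 fold changes of 0.23, 0.35, 0.59 and -0.20. HOTAIR, HOTTIP, HOXA-AS2 and HAGLR reached 0.5 CPM in 0 EV libraries, so they passed the filter only through the other lines, and the counts and medians of this list are a description. HOTAIRM1, of the HOXA cluster, had means of 1.23 ± 0.728, 6.57 ± 0.483, 27.4 ± 4.33 and 6.46 ± 0.694 CPM in EV, EHF, CDX1 and EHF+CDX1 cells. HOTAIR, which lies between HOXC11 and HOXC12, had 0, 0 and 1 reads in the EV libraries, 26, 16 and 51 in the EHF libraries, 3, 5 and 0 in the CDX1 libraries and 10, 27 and 13 in the EHF+CDX1 libraries, with more reads in every library of the lines with the EHF plasmid than in any of the others. HOXB-AS3 was lower in CDX1 cells, as were HOXB5 and HOXB6, at 2.96 ± 0.959 CPM against 11.2 ± 2.98 CPM in EV cells. In EHF+CDX1 cells it stood at 16.0 ± 0.378 CPM. It was not called lower in EHF cells, whereas HOXB5 and HOXB6, whose spans it overlaps, were. Without the strand the reads of these 3 genes cannot be separated. HAGLR, of the HOXD cluster, was at 0.102 ± 0.137 CPM in EV cells and 2.74 ± 0.289 CPM in EHF+CDX1 cells.

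Of 23 genes beside the clusters 18 were tested, with 2 called higher and 1 lower in EHF cells (5.68% and 2.65% of all genes), 2 and 4 in CDX1 cells (21.3% and 23.3%) and 3 and 1 in EHF+CDX1 cells (7.3% and 3.13%) against EV cells, and 5 and 1 in EHF+CDX1 cells against CDX1 cells (22.3% and 18.7%). The median log2 fold changes were -0.06, -0.12, -0.05 and 0.36. SKAP2, an adaptor protein gene that lies beyond the 3′ end of HOXA, was higher in each line, at 5.85 ± 1.18 CPM in EV cells, 36.1 ± 1.0 in EHF cells, 14.1 ± 0.154 in CDX1 cells and 25.9 ± 0.267 in EHF+CDX1 cells. At the other end, beyond HOXA13, the homeobox gene EVX1 and the noncoding RNA HOTTIP were called higher than in EV cells in EHF+CDX1 cells and in neither single line. Neither gene reached 0.5 CPM in an EV library, so that both entered the tests through other lines, and their values are a description. EVX1 was at 0.138 ± 0.0853 CPM in EV cells, 0.104 ± 0.00336 in EHF cells, 0.123 ± 0.0719 in CDX1 cells and 4.66 ± 0.221 CPM in EHF+CDX1 cells, with a difference of the EHF effects of log2 5.5 (SE 0.67). HOTTIP was at 0.296 ± 0.0565, 0.363 ± 0.196, 0.135 ± 0.0512 and 1.52 ± 0.0655 CPM in the same order, with a difference of log2 3.05 (SE 0.58). HIBADH, the next gene after EVX1, was called in no comparison.

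Among the TALE cofactors, which bind DNA together with HOX proteins, 9 of 11 were tested. Against EV cells 1 was called higher and 1 lower in EHF cells, 4 and 1 in CDX1 cells, and 1 and 1 in EHF+CDX1 cells, with median log2 fold changes of -0.20, 0.42 and -0.27. The shares of all genes called higher and lower in these comparisons were 5.68% and 2.65%, 21.3% and 23.3%, and 7.3% and 3.13%.

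Polycomb proteins are known to keep HOX genes silent in the embryo. Of 31 Polycomb genes 1 was called higher and 1 lower in EHF cells, 10 and 7 in CDX1 cells and 1 and 1 in EHF+CDX1 cells against the control, with medians of -0.04, 0.23 and 0.02. The largest of these changes were log2 2.24 for RYBP and -2.23 for CBX2 in CDX1 cells, both members of Polycomb repressive complexes. Trithorax proteins are known to keep HOX genes active. Of 19 such genes 1 and 0, 6 and 4, and 1 and 0 were called, with medians of -0.20, 0.43 and -0.12, and KDM6A, a histone H3 demethylase, was at log2 1.29, 2.93 and 1.35. Retinoic acid is a known inducer of 3′ HOX genes. Of 12 tested genes of its signalling 1, 3 and 2 were called higher and 0 lower, with medians of 0.31, 0.06 and 0.48. The ParaHOX genes, 3 of 6 tested, gave 1, 1 and 3 higher calls and 0 lower, with medians of 1.19, 0.42 and 1.56. Among the 3 is CDX1 itself, the introduced gene, which had 0, 0 and 1 reads in the EV libraries. It passed the filter only through the lines that carry it, and its higher level there is that of the transgene. The counts and medians of this list are therefore a description. The shares of all genes called higher and lower, given with the cofactors, apply to these lists too.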

How the data were processed

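Libraries were made with a directional NEBNext Ultra II kit. The authors used Subread for alignment against GRCh38/hg38 and featureCounts to count unique reads on RefSeq exons (both 2.0.0 per the submitters' processing notes); the strand setting is not given in the sources used here. They deposited raw counts per gene, and log2 RPKM values made after a CPM filter, voom with quantile normalization and division by exon length. The exon lengths were recovered as the difference between these steps repeated on the counts and the deposited log2 RPKM values (SD at most 4.04e-14).

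Counts were fitted in R 4.3.3 with edgeR 4.0.16 (quasi-likelihood, TMM factors, 4 lines, all 12 libraries, genes with at least 0.5 CPM in at least 3 libraries). The filter left out 0.0585% of counts, and 550 genes had no symbol. TMM factors were 0.799 to 0.845 in CDX1 cells and 0.973 to 1.09 in the other lines. Calls used glmTreat against 1.5-fold at a Benjamini-Hochberg adjusted p of 0.05 over the 15853 genes tested. RPKM are TMM-normalized CPM divided by exon length. Alternatives were limma 3.58.1 (voom, and on the deposited log2 RPKM), DESeq2 1.42.0, RLE factors, other filters, thinned counts, a replicate block, the compared lines alone, each library left out and, added after the data were seen, total-count scaling. Methods were tested on simulated data. Figures were drawn with matplotlib 3.10.9.

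The members and lists were chosen with earlier results of these data known. The genes given in full are the 3 highest and 3 lowest called members of each comparison and paralogue groups 1, 9 and 13, and the counts cover all members. Some genes are not reported here by name. The lists are TALE cofactors, noncoding RNAs of the clusters, flanking genes (KIAA1586 stands in the list by error and was not called), ParaHOX, Polycomb, Trithorax and retinoic acid genes. Intervals and floors cover counting error only, since PCR copies were not marked.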

Additional observations from a re-analysis of the deposited data

Results flagged for a closer look

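The effect of EHF was set against EV cells and against CDX1 cells, and in the HOX genes named here these effects differed by more than 1.5-fold in the edgeR test of the difference. Each value is the log2 effect in CDX1 cells minus that in EV cells. It was negative for HOXA2 (-3.34), HOXA3 (-3.34), HOXA4 (-2.16), HOXC9 (-1.62), HOXC10 (-1.49), HOXD3 (-2.17) and HOXD8 (-1.27). It was positive for HOXB3 (1.54), HOXB4 (2.24), HOXB5 (1.79), HOXB6 (2.33), HOXB8 (2.11), HOXB13 (1.65), HOXC4 (1.85) and HOXC13 (1.63). The call of HOXD3 was lost under 14 of 20 alternative settings, among them without any library other than EV replicate 3. HOXC13 lost it under 14, including without EV replicate 1 or 2, each EHF library, CDX1 replicate 1 or 2 and EHF+CDX1 replicate 1 or 2. HOXC10 lost it under 12, including without EV replicate 2, each EHF library, CDX1 replicate 1 or 3 and EHF+CDX1 replicate 1 or 2. HOXC4 lost it under 5, including without EHF+CDX1 replicate 1. Without EV replicate 3 HOXA7, HOXA13, HOXB7 and HOXB9 were called in addition, at 1.0, 1.43, 1.23 and 1.08. HOXD8 lost its call with DESeq2 and with total-count scaling, and HOXB13 in both limma fits. HOXA2 to HOXA4, HOXB3, HOXB4, HOXB5, HOXB6, HOXB8 and HOXC9 were called under all 20. Because HOXA2, HOXA4 and HOXD3 passed the filter through lines other than EV, their calls are a description. The lines compared also differ in their clones and in the level of CDX1, which cannot be told apart from the effect of EHF.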

How the results depend on the processing

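The filter at 0.1 CPM kept 35 members and at 1 CPM 30. Of the counts of called members, those of EHF cells against EV cells became 8 higher and 6 lower in the test against no change. In CDX1 cells the lower genes numbered 4 with limma voom and 5 on the deposited log2 RPKM. For EHF+CDX1 cells against EV cells the test against no change gave 1 lower gene. For EHF+CDX1 cells against CDX1 cells limma voom gave 3 higher and 5 lower, the deposited log2 RPKM 3 and 4, and the test against no change 6 lower. The lower differences of the EHF effects numbered 5 with DESeq2 and 5 with total-count scaling. The cause of these shifts was not tested, except that the test against no change asks for less. With each library left out, the counts ranged over 3 to 5 higher and 3 to 5 lower in EHF cells, 7 to 9 and 8 to 11 in CDX1 cells, and 4 to 7 and 0 to 1 in EHF+CDX1 cells against EV cells, 6 to 7 and 2 to 3 in EHF+CDX1 cells against CDX1 cells, and 6 to 12 and 6 to 8 in the difference of the effects. No called member changed direction in any setting. Total-count scaling moved the median of all genes in CDX1 cells against EV cells from log2 -0.03 to -0.37 and the calls from 3384 higher and 3691 lower to 2273 and 5115 and in EHF+CDX1 cells against CDX1 cells from 0.04 to 0.39. In the difference of the effects the median of all genes moved from 0.05 to 0.37.

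Libraries with the same replicate number did not deviate together (correlations -0.0653 to 0.0802), so no pairing by number was seen. These values cannot tell whether libraries of the same number were prepared together. With a replicate block the counts were 3 higher and 3 lower in EHF cells, where HOXA2 lost its call, 8 and 10 in CDX1 cells, 4 and 0 in EHF+CDX1 cells, 7 and 2 between the lines with CDX1 and 7 and 8 in the difference, where HOXC13 lost its call.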
